A study of Mus musculus with 4 samples.

Results

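The imprinted genes outside the Meg3 locus are a set of 41 mouse genes, named by symbol, whose expression is known to depend on the parent of origin in at least some tissues. Of these, 38 had at least 1 probe set that the platform annotation lists with that gene alone, among 18193 genes so represented on the array. They are the subject here, in F9 cells, a mouse embryonal carcinoma line. Slc22a3, Zrsr1 and H19, whose probe set is listed with Mir675 as well, were not analysed here. The 38 genes had 90 probe sets in all, from 1 per gene (18 genes) to 8 (Ndn). Where a gene had several, the brightest one (by its mean level over all 4 arrays) stood for it, and the others are given beside it.

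The knockdown cells carried a lentiviral pLKO.1 construct with a short hairpin RNA against Phf19 (shPhf19, 2 Affymetrix Mouse Genome 430 2.0 arrays). Their controls carried the pLKO.1 vector (shVector, 2 arrays). All 4 cultures were infected F9 cells kept under puromycin, and total RNA was hybridised. The labels name biological replicates and do not say whether they came from separate infections or how many hairpins were used, so a p-value here reflects only how far these arrays scatter, which may be technical. Values are log2 expression, a change is shPhf19 minus shVector on that scale, and passing the test means a limma adjusted p (Benjamini-Hochberg over 45037 probe sets) under 0.05. An error after a change is limma's moderated SE.

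Imprinted genes are transcribed mainly from the maternal or the paternal chromosome. In most clusters this is because DNA methylation laid down in the egg or the sperm marks a control region. In several clusters the unmethylated control region drives a long noncoding RNA in cis, and the neighbouring genes on that chromosome are silenced with the help of Polycomb repressive complexes and other histone-modifying enzymes. Phf19 encodes a Polycomb-like partner of Polycomb repressive complex 2. Many maternally expressed members restrain growth of the embryo or placenta, and many paternally expressed ones promote it. The arrays measure the sum over both alleles, so a change can come from either one, and in a bulk culture more cells that express a gene and more RNA per cell cannot be told apart.

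Across the whole array, replicates correlated at 0.9984 in shPhf19 and 0.9974 in shVector (Pearson's r over probe sets), and arrays of different groups at 0.9961 to 0.997. Phf19 was lower by 1 of its 2 probe sets (1427920_at, 5.08 and 5.17 in shPhf19 cells, against 6.07 and 6.14 in shVector cells, adjusted p = 0.0108). That is the dimmer of the 2. The brighter, 1431857_at, which would stand for the gene by the rule used for the members, was at -0.06 ± 0.12 and did not pass. It read 6.05 and 6.26 in shPhf19 cells, against 6.32 and 6.11 in shVector cells, so the groups overlapped. All 10 embryonal carcinoma markers examined, Pou5f1 and Sox2 among them, lay above the array median on every array, and none passed the test. Of 10 markers of extraembryonic endoderm, a lineage F9 cells can form, Cubn, Dab2 and Gata6 rose and none fell. Of all genes 1.15% rose and 0.863% fell. Among the 10 changes 7 were above 0 and 3, those of Sox7, Afp and Ttr, below. Sox7, the brightest of the 10, read 9.16 and 9.16 in shPhf19 cells, against 9.26 and 9.55 in shVector cells, and did not pass. Both Cubn probe sets passed, whereas the other probe sets of Dab2, at 0.09 to 0.44, and of Gata6, at 0.00 and 0.08, did not. The summed log2 level over the 10, with the 3 that rose included, was 62.8 to 62.9 on the shPhf19 arrays and 56.9 to 57.4 on the shVector arrays. Afp, a defining plasma protein gene of visceral endoderm, was at 4.34 and 4.66 in shPhf19 cells, against 4.67 and 4.67 in shVector cells, and its change did not pass. Of 8 measured trophoblast markers and 9 fibroblast markers none passed, with sums of 41.5 to 42.0 in shPhf19 and 41.5 to 41.7 in shVector for trophoblast, and 42.2 to 42.6 in shPhf19 and 43.1 to 43.4 in shVector for fibroblast. Of 8 neuronal markers, Tubb3 and Stmn2 fell, and the sums were 58.3 to 58.5 in shPhf19 and 59.3 to 59.9 in shVector. The part of these marker shifts in the changes of imprinted genes was not tested.

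Among the imprinted genes, 3 of 38 rose, none fell and 35 did not pass. The 3 were Cdkn1c, Phlda2 and Peg10, at 1.83-fold to 2.22-fold. On the whole array 1.15% of genes rose and 0.863% fell, and 1.41% of all probe sets passed in either direction. The median change of the 38 genes was 0.11, against 0.00 over all genes, with 25 above 0 and 13 below. Both shPhf19 arrays lay above both shVector arrays for 18 of the 38 (47.4%), against 21.3% of all genes. The opposite arrangement held for 5 of the 38, against 22.2% of all genes. Without the 3 that passed, the median was 0.09 and 15 of 35 genes had both shPhf19 arrays on top. An unadjusted p under 0.05 was reached by 11 of the 38, all with higher values in shPhf19 cells. Of all genes, 7.73% did so with higher values and 7.35% with lower ones. The members were chosen with earlier results of these data known. These comparisons with all genes therefore describe the set, and a shift of the set as a whole was not tested.

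Cdkn1c encodes p57, a cyclin-dependent kinase inhibitor that lets embryonic and placental cells leave the cell cycle and is expressed from the maternal allele. Its single probe set, 1417649_at, read 7.76 and 7.77 in shPhf19 cells, against 6.46 and 6.77 in shVector cells. The shPhf19 arrays were nearly equal and both lay well above the shVector arrays, which differed more from each other. The change of 1.15 ± 0.12, or 2.22-fold, had a 95% interval of 0.87 to 1.44 (limma adjusted p = 0.0135).

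Phlda2, a maternally expressed gene in the same cluster, encodes a small pleckstrin homology domain protein that limits growth of the placenta. Probe set 1417837_at, the only one for Phlda2, read 6.998 and 6.90 in shPhf19 cells, against 5.97 and 6.12 in shVector cells. The gap between the groups was wider than the gap between replicates of either one. Phlda2 rose 1.88-fold, by 0.91 ± 0.10 (95% interval 0.67 to 1.15, limma adjusted p = 0.0153).

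Peg10 is a paternally expressed gene derived from a retrotransposon of the gag-pol kind and is needed for the mouse placenta. It was read by 1 probe set, 1427550_at, at 5.29 and 5.08 in shPhf19 cells, against 4.32 and 4.31 in shVector cells. The shVector arrays nearly coincided, and both shPhf19 arrays were higher. Peg10 rose 1.83-fold, by 0.87 ± 0.11 (95% interval 0.61 to 1.13, limma adjusted p = 0.0199). All 4 values lay below the array medians of 5.75 to 5.77, and the table has no detection calls, so how far the signal stands above background is not known.

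None of the 3 has a second probe set that could check the first. Each call, like every other on the array, was lost when any 1 array was left out. Such a fit takes its residual spread from the other group alone. Without shPhf19 replicate 1 the changes of Cdkn1c, Phlda2 and Peg10 were 1.16, 0.86 and 0.77, with limma adjusted p-values of 0.761, 0.761 and 0.727. Without shPhf19 replicate 2 the changes of Cdkn1c, Phlda2 and Peg10 were 1.15, 0.95 and 0.97, with limma adjusted p-values of 0.608, 0.579 and 0.554. Without shVector replicate 1 the changes of Cdkn1c, Phlda2 and Peg10 were 0.997, 0.83 and 0.87, with limma adjusted p-values of 0.0973, 0.122 and 0.15. Without shVector replicate 2 the changes of Cdkn1c, Phlda2 and Peg10 were 1.31, 0.99 and 0.87, with limma adjusted p-values of 0.124, 0.139 and 0.2. Leaving out any 1 of these arrays also took the number of called probe sets on the whole array to 0.

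**Figure D1:**
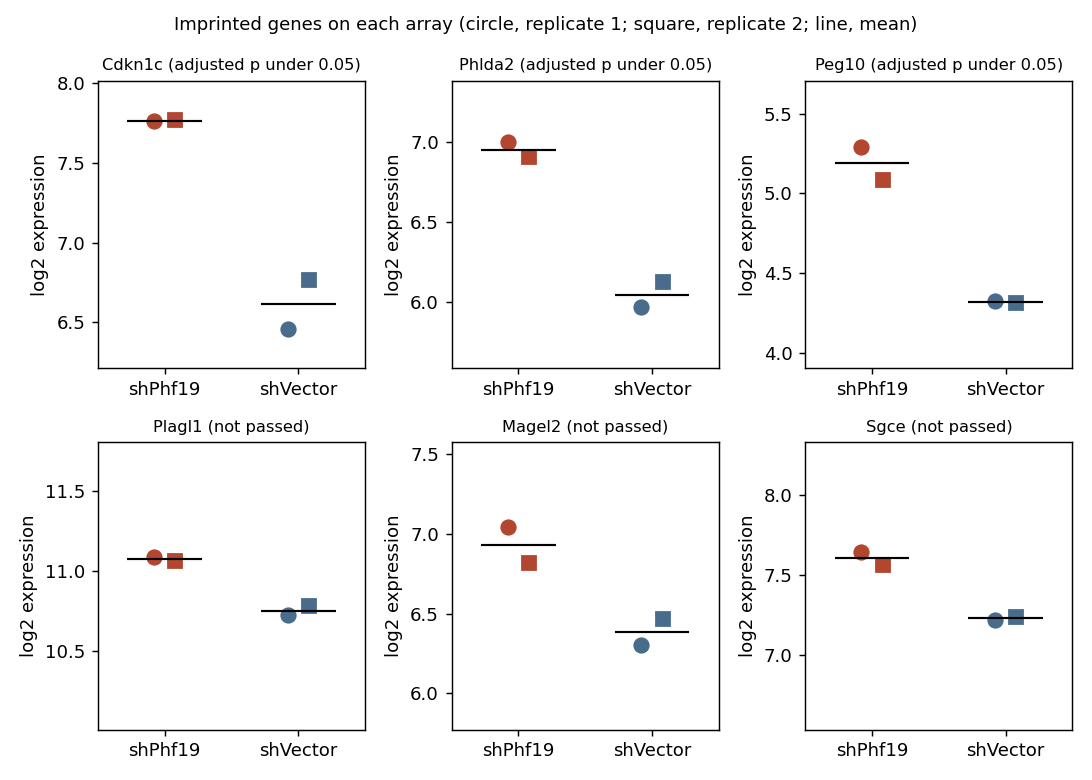
Log2 expression of 6 imprinted genes on each array, with shPhf19 left of shVector; circles are replicate 1, squares replicate 2 and lines group means, and every panel spans the same log2 range. Cdkn1c, Phlda2 and Peg10 are shown because they passed, and Plagl1, Magel2 and Sgce because they had the smallest p of the other members. Genes picked in this way tend to have separated arrays. In all 6 panels both shPhf19 arrays lie above both shVector arrays, with the largest change for Cdkn1c (1.15) and the smallest for Plagl1 (0.32).

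The Kcnq1 cluster, which holds Cdkn1c and Phlda2, is controlled by Kcnq1ot1, a paternally transcribed noncoding RNA that runs antisense to Kcnq1 and silences its neighbours on the paternal chromosome. Of its 9 measured genes 2 rose and none fell, against 1.15% and 0.863% of all genes, and the median change was 0.14. In the RefSeq gene order of GRCm38.p6, Slc22a18 lies directly between Cdkn1c and Phlda2 among the measured genes, and Nap1l4 follows Phlda2. Slc22a18, a maternally expressed transporter gene, read 6.47 and 6.47 in shPhf19 cells, against 6.50 and 6.48 in shVector cells. The 4 arrays nearly coincided, and its change of -0.02 ± 0.09 had a 95% interval of -0.23 to 0.18, which lies wholly below the intervals of both flanking genes. Its second and dimmer probe set was at -0.11. Nap1l4, a nucleosome assembly protein gene, was at 0.12 ± 0.06 (95% interval -0.01 to 0.26, adjusted p = 0.452).

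Kcnq1ot1 itself did not pass. Its brightest probe set, 1457781_at, read 10.25 and 10.10 in shPhf19 cells, against 9.90 and 9.97 in shVector cells, a change of 0.24 ± 0.08 (limma adjusted p = 0.257). Of its 6 probe sets, 5 had both shPhf19 arrays above both shVector arrays, with changes of 0.14 to 0.37. The sixth, 1441588_at, read 6.34 and 6.65 in shPhf19 cells, against 6.50 and 7.83 in shVector cells, where 1 shVector array stood far above the rest. Both shPhf19 arrays lay above both shVector arrays for 21.3% of all genes, each read by its brightest probe set. By its brightest probe set the noncoding RNA had a change of the same sign as the 2 coding genes that rose. Kcnq1, the potassium channel gene that hosts it, was at -0.09 ± 0.10 (95% interval -0.33 to 0.15). Which strand each of these probe sets reads was not analysed here.

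At the far side of the cluster, the maternally expressed genes Ascl2, Cd81 and Tssc4 did not pass either. Ascl2 encodes a basic helix-loop-helix factor needed for the trophoblast that supports the placenta. Its brightest probe set was at 0.24 ± 0.12 (adjusted p = 0.475), its dimmest, 1432018_at, at 0.43 ± 0.10 (adjusted p = 0.136), and the third at 0.04 ± 0.10. Cd81, a tetraspanin gene, read 11.73 and 11.71 in shPhf19 cells, against 11.62 and 11.53 in shVector cells, so the groups did not overlap but lay close together (change 0.14 ± 0.06, adjusted p = 0.368). Tssc4, whose human counterpart takes part in spliceosome assembly, was at -0.07 ± 0.07.

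**Figure D2:**
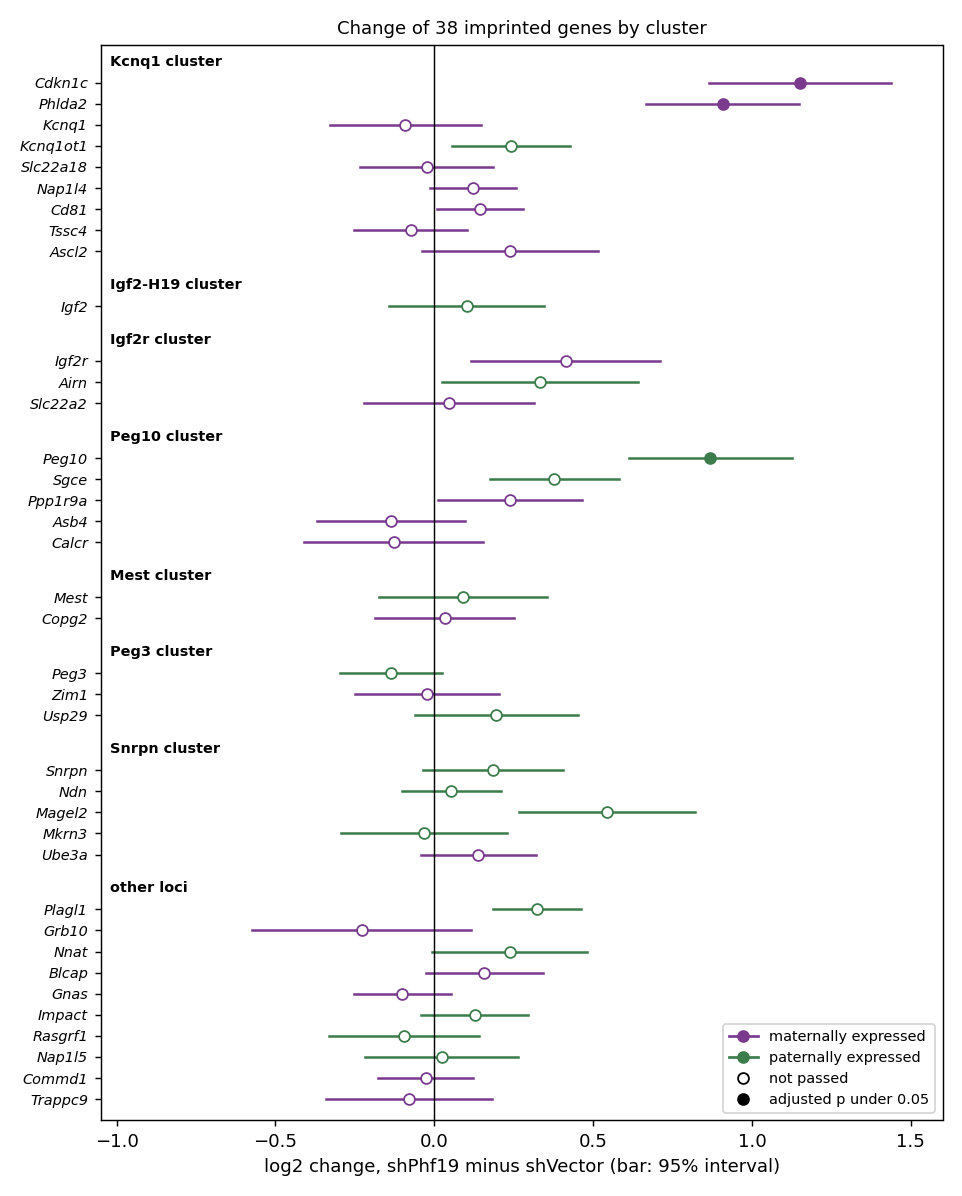
Log2 change, shPhf19 minus shVector, of the representative probe set of each of 38 imprinted genes, grouped by cluster, with bars for limma's 95% interval (not adjusted for the number of genes). Filled points passed the test: Cdkn1c, Phlda2 and Peg10 stand to the right of all others, and Slc22a18, listed between genes of the same cluster, sits near 0.

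Promoters are shown for the rising gene Phlda2, for the cluster's noncoding RNA Kcnq1ot1, and for Plagl1 and Magel2. Plagl1 and Magel2 were the members closest to the threshold without passing it. DNA methylation marks a control region in most clusters, and whether these promoters lie in such a region was not analysed here. The promoters are printed only to let their CpG content be seen beside the values of their genes. Each is the 250 bases before the annotated start, from RefSeq's GRCm38.p6, printed 5′ to 3′ on the gene's strand, with every CpG in capitals. The stretches are chr7:143502525-143502774 on the minus strand for Phlda2, chr7:143296548-143296797 on the minus strand for Kcnq1ot1, chr10:13090582-13090831 on the plus strand for Plagl1 and chr7:62376729-62376978 on the plus strand for Magel2.
Phlda2: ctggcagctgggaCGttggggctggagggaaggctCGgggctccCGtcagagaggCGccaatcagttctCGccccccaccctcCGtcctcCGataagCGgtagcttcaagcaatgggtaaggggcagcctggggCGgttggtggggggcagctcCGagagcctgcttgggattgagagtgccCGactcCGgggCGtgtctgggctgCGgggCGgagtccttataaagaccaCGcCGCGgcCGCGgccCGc
Kcnq1ot1: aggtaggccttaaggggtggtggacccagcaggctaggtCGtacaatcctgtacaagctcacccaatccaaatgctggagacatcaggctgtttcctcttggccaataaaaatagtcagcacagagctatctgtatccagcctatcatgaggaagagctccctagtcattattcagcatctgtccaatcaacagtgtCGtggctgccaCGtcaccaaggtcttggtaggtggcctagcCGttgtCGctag
Plagl1: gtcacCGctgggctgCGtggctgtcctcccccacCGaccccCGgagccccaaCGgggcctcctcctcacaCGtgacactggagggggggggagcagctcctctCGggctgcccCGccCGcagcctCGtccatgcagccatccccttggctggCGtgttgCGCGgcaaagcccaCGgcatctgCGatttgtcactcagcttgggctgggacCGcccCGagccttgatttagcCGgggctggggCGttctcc
Magel2: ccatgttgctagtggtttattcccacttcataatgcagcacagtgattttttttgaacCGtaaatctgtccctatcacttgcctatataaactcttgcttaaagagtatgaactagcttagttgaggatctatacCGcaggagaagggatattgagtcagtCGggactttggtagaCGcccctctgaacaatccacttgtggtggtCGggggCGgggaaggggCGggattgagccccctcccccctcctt

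Phlda2 had 21 CpGs in this window, more than 83.7% of the 32851 promoters in the table, and Plagl1 had 19, more than 80.3%. Kcnq1ot1 had 5 and Magel2 had 7, near the median of 6. Of the 38 measured members 31 matched the promoter table, with 47 promoters and a median of 12 CpGs. The 7 without a match were Cdkn1c, Peg10, Sgce, Kcnq1, Nap1l4, Impact and Trappc9, so these counts leave out Cdkn1c and Peg10, which rose. Members with few and with many CpGs stand among those with the larger changes. The hexamer TGCCGC, which the imprint-protecting zinc finger protein ZFP57 binds when its CpG is methylated, was searched on both strands. It was present in 8 of the 47 member promoters (17.0%), belonging to Calcr, Copg2, Mest, Nap1l5, Plagl1, Slc22a2 and Zim1, against 8.68% of all promoters. The hexamer holds a CpG, and the member promoters were richer in CpG (median 12 against 6) and in GC (median 60.0% against 52.4%). Mest promoters of 14 CpGs each, with 62.4% and 62% GC, both count among the 8. Whether the hexamer was more frequent than in promoters of like composition was not tested. Of the 4 printed, only Plagl1 holds the hexamer, on the opposite strand 90 bases before the start, where it reads GCGGCA. A match of letters is a description and not a binding site, and the arrays do not measure methylation.

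In the Peg10 cluster 1 of 5 measured genes rose and none fell, against 1.15% and 0.863% of all genes, with a median change of 0.24. Sgce, the paternally expressed epsilon-sarcoglycan gene that lies next to Peg10 and shares its imprinted promoter region, read 7.65 and 7.57 in shPhf19 cells, against 7.22 and 7.24 in shVector cells. Both shPhf19 arrays were above both shVector arrays, and the change was 0.38 ± 0.08 without passing (95% interval 0.17 to 0.58, limma adjusted p = 0.117). The interval lay above 0 and just below that of Peg10. A second and dimmer Sgce probe set was at 0.09 ± 0.17, with shVector arrays 0.49 apart.

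On the other side of Peg10, Ppp1r9a encodes neurabin, an actin-binding scaffold of synapses, and is maternally expressed in placenta. It read 9.92 and 9.88 in shPhf19 cells, against 9.78 and 9.54 in shVector cells, a change of 0.24 ± 0.09 (adjusted p = 0.364). Of its 5 probe sets, 4 had both shPhf19 arrays above both shVector arrays, at 0.21 to 0.35, and the dimmest was at -0.15 ± 0.13. By their brightest probe sets, 21.3% of all genes had both shPhf19 arrays on top. Asb4, an ankyrin repeat and SOCS box gene, had probe sets on both sides of 0, at -0.14 ± 0.10 and 0.33 ± 0.09, all values below the array medians. Calcr, the calcitonin receptor gene, was at -0.13 ± 0.12.

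The insulin-like growth factor axis did not pass at either of its measured ends. Igf2, the paternally expressed fetal growth factor, read 6.66 and 6.47 in shPhf19 cells, against 6.48 and 6.45 in shVector cells. The groups overlapped, and the change was 0.10 ± 0.10 (95% interval -0.14 to 0.35). A second Igf2 probe set, far dimmer, was at 0.02. Igf2r encodes the maternally expressed receptor that takes up Igf2 for breakdown in lysosomes. Its 2 probe sets both had the shPhf19 arrays on top, as did the brightest probe set of 21.3% of all genes. The brighter, 1424111_at, read 8.35 and 8.52 in shPhf19 cells, against 8.18 and 7.87 in shVector cells, and the dimmer, 1424112_at, read 8.22 and 8.18 in shPhf19 cells, against 8.02 and 7.98 in shVector cells. Their changes were 0.41 ± 0.12 (limma adjusted p = 0.228) and 0.20 ± 0.08 (adjusted p = 0.352), at or below 1.33-fold.

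Airn, the paternally transcribed noncoding RNA that overlaps Igf2r and silences it on the paternal chromosome, read 4.96 and 5.29 in shPhf19 cells, against 4.80 and 4.78 in shVector cells by its brightest probe set. That change of 0.33 ± 0.13 did not pass (adjusted p = 0.353), with shPhf19 replicate 2 well above the other arrays. Its other 4 probe sets were between -0.06 and 0.06. All were dim, and 1 further probe set that the annotation gives to Airn and Igf2r together was not used. Slc22a2, an organic cation transporter gene of the same cluster, was at 0.05 ± 0.11.

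In the Snrpn cluster, which corresponds to the human Prader-Willi and Angelman region, none of 5 genes passed. Magel2, a paternally expressed gene of the MAGE family, came nearest in size. Its probe set 1417217_at read 7.04 and 6.82 in shPhf19 cells, against 6.30 and 6.47 in shVector cells. The shPhf19 arrays were both higher, but 0.22 apart, and the change of 0.54 ± 0.12 did not pass (95% interval 0.27 to 0.82, limma adjusted p = 0.101). With the mean of each gene's probe sets in place of the brightest and fewer tests, Magel2 passed (adjusted p = 0.0445).

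The genes beside Magel2 lay closer to 0. Ndn encodes necdin, the MAGE family protein whose gene lies next to Magel2. It read 10.30 and 10.34 in shPhf19 cells, against 10.31 and 10.23 in shVector cells by the brightest of 8 probe sets, a change of 0.05 ± 0.07 (95% interval -0.10 to 0.21), and the others ran from -0.05 to 0.22. Mkrn3, on the other side of Magel2, encodes a RING finger protein that in human restrains the onset of puberty, and was at -0.03 ± 0.11 (95% interval -0.29 to 0.23). Both intervals lie below that of Magel2. Snrpn, which encodes a spliceosomal protein, was at 0.18 ± 0.09 by the 1 probe set listed with it alone; 6 more, listed with Snurf and Snrpn together, were not used. Ube3a, a ubiquitin ligase gene that is maternally expressed in neurons, was at 0.14 ± 0.08 (adjusted p = 0.536), and its other 5 probe sets ran from -0.03 to 0.15.

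Plagl1 encodes the zinc finger protein Zac1, a paternally expressed transcription factor that arrests the cell cycle and binds at other imprinted genes. Of all members that did not pass it had the smallest p. Probe set 1426208_x_at read 11.09 and 11.06 in shPhf19 cells, against 10.72 and 10.78 in shVector cells. Replicates nearly coincided in both groups, and the change was 0.32 ± 0.06, or 1.25-fold (95% interval 0.19 to 0.46, limma adjusted p = 0.0608). It passed after quantile normalization (adjusted p = 0.0425) and with the dimmer 50% of probe sets left out (adjusted p = 0.0439). The other Plagl1 probe sets, both much dimmer, were at 0.03 ± 0.11 and 0.12 ± 0.14, and the mean over all 3 was 0.16. The name ending _x_at marks a probe set that can also hybridise to related transcripts.

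The Mest and Peg3 clusters stayed within small differences that did not pass. Mest, a paternally expressed hydrolase gene of mesoderm, read 9.75 and 9.59 in shPhf19 cells, against 9.44 and 9.72 in shVector cells, with overlapping groups. Copg2, its neighbour and a coatomer subunit gene, was at 0.03 ± 0.09. Peg3, a paternally expressed zinc finger gene tied to maternal care and growth in mice, read 9.64 and 9.59 in shPhf19 cells, against 9.74 and 9.76 in shVector cells, so that both shPhf19 arrays were below both shVector arrays. The change was -0.14 ± 0.07 (95% interval -0.30 to 0.03, adjusted p = 0.488), and the other 4 Peg3 probe sets ran from -0.18 to 0.05. Usp29, the ubiquitin protease gene next to Peg3, was at 0.20 ± 0.11 and Zim1, a maternally expressed zinc finger gene, at -0.02 ± 0.09, both from dim probe sets. A second Usp29 probe set was at 0.04.

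Of the other single loci, Nnat and Blcap are nested, with the paternally expressed neuronatin gene Nnat lying inside Blcap. Nnat read 5.30 and 5.46 in shPhf19 cells, against 5.12 and 5.17 in shVector cells, a change of 0.24 ± 0.10 (adjusted p = 0.411). Blcap was at 0.16 ± 0.08 (adjusted p = 0.477). In both genes the shPhf19 arrays lay above the shVector arrays, as they did for 21.3% of all genes. Grb10, which encodes an adaptor that dampens insulin and growth factor receptors, had the lowest change of the 38 at -0.23 ± 0.14. It read 7.75 and 7.39 in shPhf19 cells, against 7.68 and 7.92 in shVector cells, and the groups overlapped because the shPhf19 arrays were 0.36 apart. Its 2 dimmer probe sets were at 0.01 and -0.08.

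Gnas, the gene of the stimulatory G protein alpha subunit, was at -0.10 ± 0.06, and all 5 of its probe sets were below 0 without passing. Impact, a regulator of translation under amino acid shortage, was at 0.13 ± 0.07 by its brightest probe set and at 0.02 and -0.25 by the others, and the mean of its probe sets had the opposite sign, at -0.03. Rasgrf1, a Ras exchange factor gene, was at -0.10 ± 0.10, with its other probe sets at -0.16 and -0.13. The nucleosome assembly gene Nap1l5 was at 0.02 ± 0.10. Commd1, whose protein acts in copper handling and endosomal sorting, was at -0.03 ± 0.06, and its second probe set at 0.00. Trappc9, a subunit gene of a vesicle tethering complex, was at -0.08 ± 0.11, with its other probe sets at -0.14 and 0.01.

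**Figure D3:**
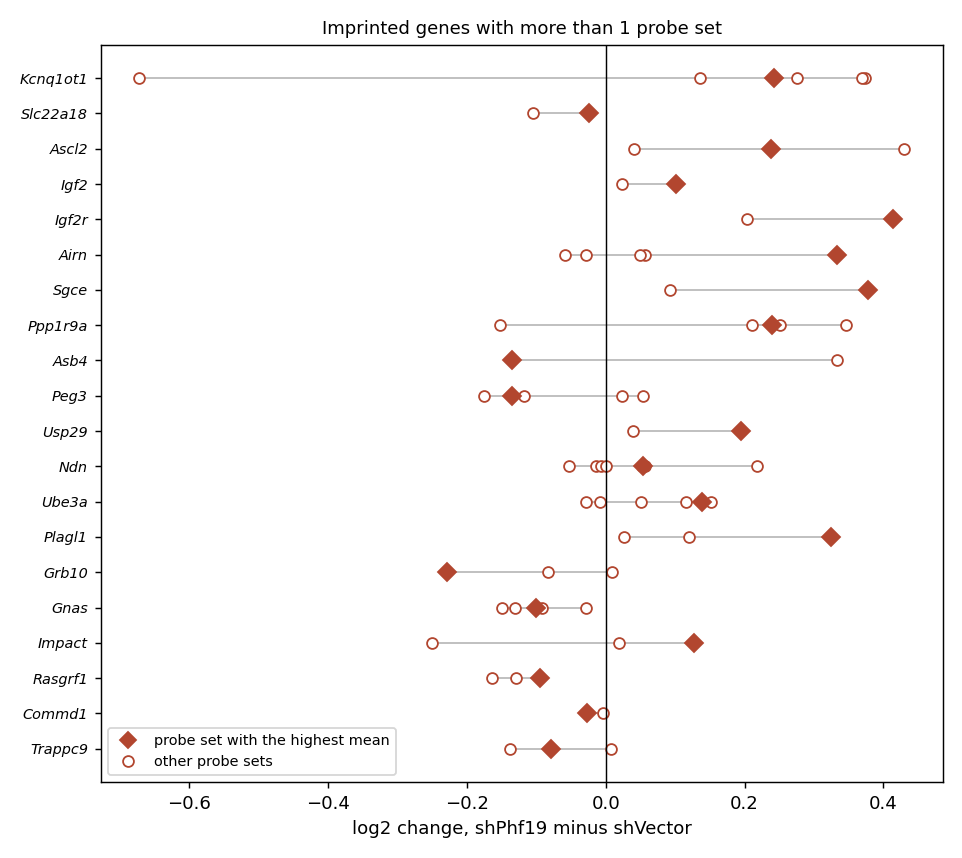
Log2 change, shPhf19 minus shVector, of every probe set of the 20 imprinted genes that have more than 1; diamonds are the probe sets with the highest mean and circles the others. Probe sets of Igf2r, Ascl2, Plagl1 and Sgce all lie above 0 and those of Gnas, Rasgrf1, Slc22a18 and Commd1 all below, while Kcnq1ot1 has 1 probe set at -0.67 and 5 above 0.

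Across all 90 probe sets of the members, 3 passed, all higher in shPhf19 cells, against 1.41% of all probe sets. The 52 that did not represent their gene had a median change of 0.02 and none passed. The larger median of the representative probe sets, 0.11, was not seen in these dimmer ones. The 52 came only from the 20 genes with more than 1 probe set, which do not include Cdkn1c, Phlda2 and Peg10. The medians therefore cover different genes, but the gap was also present within those 20 genes. Ordered by change, their representative probe sets had Igf2 and Impact in the middle, at 0.10 and 0.13. Of 38 representative probe sets, 26 were at or above the array median on all arrays and 12 below it on all.

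Read by the expressed allele, 2 of 21 maternally expressed and 1 of 17 paternally expressed genes rose, and none of either kind fell. On the whole array 1.15% of genes rose and 0.863% fell. The median change was 0.03 for the maternally expressed genes, with 11 above 0 and 10 below. It was 0.18 for the paternally expressed genes, with 14 above 0 and 3 below, the 3 being Peg3, Rasgrf1 and Mkrn3. Both shPhf19 arrays were on top for 8 of the 21 and 10 of the 17, against 21.3% of all genes. Neither the comparison with all genes nor the difference between the alleles was tested. The highest changes were those of Cdkn1c, Phlda2 and Igf2r among maternally expressed genes and those of Peg10, Magel2 and Sgce among paternally expressed ones. Several members are imprinted only in placenta or brain, such as Ppp1r9a, Cd81, Ube3a and Trappc9, so the allele named for them may not apply in F9 cells.

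**Figure D4:**
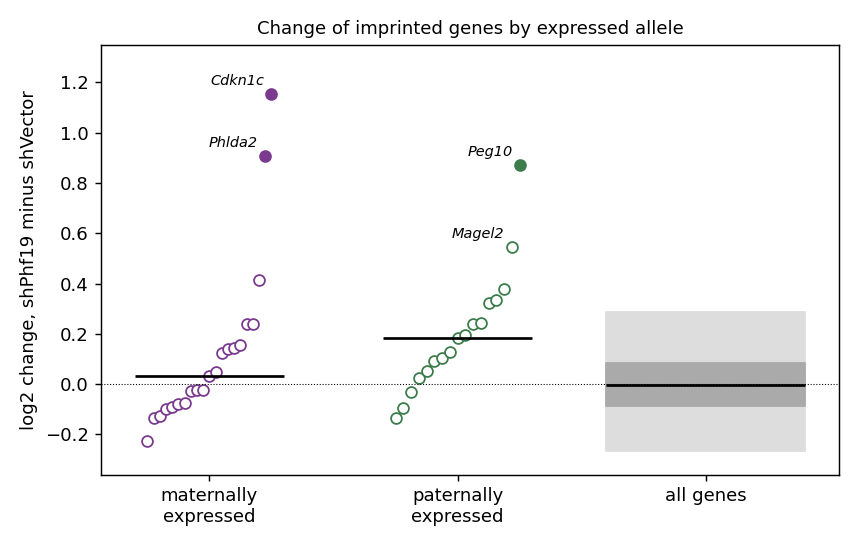
Log2 change, shPhf19 minus shVector, of 21 maternally and 17 paternally expressed imprinted genes (points; filled where the test was passed; horizontal lines are medians), beside all 18193 genes (line, median; dark band, 25th to 75th percentile; light band, 5th to 95th). The medians are 0.03 and 0.18, against 0.00 over all genes, whose light band runs from -0.27 to 0.29.

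A list of 35 imprinted genes that are not members, 30 of them measured, gave 1 rise and 1 fall, with a median change of 0.05. Of all genes 1.15% rose and 0.863% fell. Several of these genes lie in the clusters already described, such as Th and Tspan32, which flank Ascl2. Sfmbt2, a paternally expressed gene of a Polycomb-group protein needed for trophoblast, read 9.47 and 9.27 in shPhf19 cells, against 8.71 and 8.80 in shVector cells. It rose 1.53-fold, by 0.61 ± 0.09 (limma adjusted p = 0.0385), with its second probe set at 0.43 ± 0.12 (adjusted p = 0.186). Qpct, a glutaminyl cyclase gene imprinted in mouse placenta, read 3.87 and 3.57 in shPhf19 cells, against 4.46 and 4.54 in shVector cells. It fell by 0.78 on the log2 scale (limma adjusted p = 0.0451), from a single probe set below the array medians.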

How the data were processed

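RNA from 4 cultures of F9 cells was read on Affymetrix Mouse Genome 430 2.0 arrays, 2 per group. The deposited table holds 1 log2 value per probe set and array. The log2 scale was read from the values (2.31 to 14.54 over the probe sets tested) and the near equal array medians show that the authors had normalized the arrays, by a method not given in the sources used here. The number of arrays limits the precision.

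The contrast of shPhf19 minus shVector was fitted by lmFit and eBayes, with an intensity trend and two-sided, in limma 3.58.1 under R 4.3.3, over 45037 probe sets, without 64 Affymetrix control probe sets and with no filter on level. Benjamini-Hochberg adjustment covered all 45037, at a threshold of 0.05. The script was tested on data with known changes. GEO's platform annotation gave 34945 probe sets 1 gene symbol, 932 several and 9160 none; only the first were named. A gene was represented by its brightest probe set, judged by the mean of all 4 arrays.

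The members and lists were chosen with earlier results of these data known, so no p was adjusted over a list alone. Named genes were all members, with values per array for those that passed and for those with the smallest p, and the members of other lists that passed. Alternatives were quantile normalization, median centring, no intensity trend, filters on dim probe sets, the mean of a gene's probe sets, a replicate block and leaving out each array. Promoter sequences came from RefSeq (GRCm38.p6).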

Additional observations from a re-analysis of the deposited data

How the results depend on the processing

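The rises of Cdkn1c, Phlda2 and Peg10 passed after quantile normalization, median centring, without an intensity trend, with the mean of probe sets and after removal of the dimmest 25% of probe sets. After removal of the dimmest 50% Peg10 was not tested, and Cdkn1c, Phlda2 and Plagl1 passed. Quantile normalization added Plagl1, and the mean of probe sets added Magel2, for 4 calls each. Called probe sets numbered 636, against 380 without an intensity trend and 856 after quantile normalization. Leaving out any 1 array gave 0 called probe sets and 0 called members throughout (range 0 to 0; limma, 2539 to 6942 probe sets at an unadjusted p under 0.05); such a fit takes its residual spread from the other group alone. Same-numbered arrays deviated from their group means with a correlation of -0.197, and the labels tie no replicate number to a common batch. With the replicate number as a block limma called 0 probe sets and 0 members, with 3890 probe sets at an unadjusted p under 0.05 (8 of the members). A block with crossed numbers, chosen after seeing the data, called 596 probe sets and 3 members. Asb4 changed sign, at 0.10 with the mean of its probe sets. The sign of 10 of the 38 members differed under at least 1 setting, all of them among those that did not pass; a direction was taken to exist only where a change exceeded its SE.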

Other observations

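Of 23 factors that place or protect imprints, all measured, 2 rose and 1 fell, with a median change of 0.03. Of all genes 1.15% rose and 0.863% fell. Dnmt1, the methyltransferase that copies DNA methylation at replication, read 11.41 and 11.53 in shPhf19 cells, against 11.87 and 11.83 in shVector cells. It fell by 0.38 on the log2 scale (limma adjusted p = 0.0425), with its other probe sets at -0.33 ± 0.06 (adjusted p = 0.0816) and -0.41 ± 0.09 (adjusted p = 0.1). Dnmt3l, the cofactor of de novo methylation needed for maternal imprints, read 11.41 and 11.37 in shPhf19 cells, against 10.38 and 10.63 in shVector cells and rose by 0.88 ± 0.09 (limma adjusted p = 0.013). Dnmt3b, a de novo methyltransferase, rose by 0.28 ± 0.05 (limma adjusted p = 0.0482), with its second probe set at 0.34 ± 0.06 (adjusted p = 0.0595). The imprint-protecting factors Zfp57, at 0.12 ± 0.08, and Trim28, at 0.00 ± 0.04, were named after their values were seen and did not pass. Methylation itself was not measured, and the relation of these changes to those of the imprinted genes was not tested.

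Single arrays stood apart for a few dim or mid-level probe sets. For 1417356_at of Peg3 the arrays read 6.27 and 5.82 in shPhf19 cells, against 5.59 and 6.46 in shVector cells, so that both groups held 1 high and 1 low array, while the brighter Peg3 probe sets did not. Within the 38 representative probe sets the gap between replicates had a median of 0.103 in shPhf19 and 0.113 in shVector, and the largest gaps were 0.36 in shPhf19 and 0.312 in shVector.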
